A study of Mus musculus with 7 samples.

Results

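The genes described here are 45 genes of DNA replication and S phase: the origin licensing factors, the MCM helicase and its activators, the replicative polymerases with primase, the sliding clamp and its loader, and the enzymes and chaperones that work beside them. They were chosen by function, with earlier results of these data known. The condition was that a gene had at least 10 counts in at least 3 libraries, which all 45 of the 45 listed genes met out of 55385 gene IDs in the files. All 45 had 10 or more counts in every library, from 10 to 5257, and all 45 were among the 15448 genes that passed the filter on low counts and were tested.

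The libraries were made from tumour-associated macrophages that were sorted by FACS from intracranial gliomas in C57BL/6 mice. Each tumour grew from 100000 injected cells of the QPP7 glioma line, which carried either the hairpin shChi3l1 against Chi3l1 (3 libraries) or the control hairpin shSC (4 libraries). The hairpin was in the tumour cells, so the macrophages themselves carried no knockdown in either group. Chi3l1 encodes a secreted chitinase-like protein, and the study set the macrophages of the Chi3l1-depleted tumours against those of the control tumours. All tumours came from a single cell line. The sources used here do not name the antibodies of the sorting gate, nor the age and sex of the mice. Nothing in the labels ties each library to its own mouse, and the p-values below therefore measure only the spread between these libraries.

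Libraries held 19169129 to 36502664 counts. The gene of CHI3L1, listed in the annotation as Chil1, had 7 to 31 counts in a library and a fitted log2 fold change of -0.0005, which does not check a knockdown made in other cells. All 10 macrophage marker genes were present in every library, with Lyz2, Csf1r and C1qa among them. Their summed level was 24948 to 43942 CPM (counts per 1000000, after scaling of the library sizes) in shChi3l1 and 18085 to 29153 CPM in shSC, and all 10 fitted higher in shChi3l1. Lyz2 gave most of this sum in every library. It had 714584 counts in shChi3l1 1 and 294941 in shSC 1, beside 106238 and 108650 for C1qa. Of the 15 tumour and glia markers none was at 0 in all libraries. Their summed level was 42.0 to 109 CPM in shChi3l1 and 47.7 to 364 CPM in shSC, with the highest value in shSC 4. Across the 45 replication genes the highest library stood a median of 3.23-fold above the lowest, with a range of 1.69-fold to 18.5-fold. The common dispersion over all genes was 0.340, a coefficient of variation of 58.3% between libraries of a group.

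A cell copies its genome once per division. In G1 the origin recognition complex, with CDC6 and CDT1, loads the ring-shaped MCM2-7 helicase onto origins, and at S phase entry CDC45 and the GINS complex join it to form the active helicase. Primase with polymerase alpha starts each strand, RFC loads the PCNA clamp, and polymerases delta and epsilon extend it, while RPA covers the exposed single strand. Most of these genes are transcribed in bursts around the G1/S boundary under E2F factors, so their messages are abundant in dividing cells and scarce in resting ones. Macrophages in brain tumours descend from blood monocytes and from microglia, and both kinds can divide in place.

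Replication genes were mostly lower in macrophages from shChi3l1 tumours, by amounts that the spread between libraries did not separate gene by gene. Of the 45 genes, 40 (88.9%) had a fitted log2 fold change below 0, where 42.4% of all tested genes did. The genes were read in the same libraries and are not independent of each other, so this count is a description and not a test. The median of the 45 was -0.41, with a range from -1.38 (Mcm10) to 0.26 (E2f1), beside a median of 0.07 over all tested genes. None passed edgeR's quasi-likelihood test at an adjusted p under 0.05, as was so for 0% of all tested genes (0 of 15448), and the adjusted p of each replication gene was 0.9998. At an unadjusted p under 0.05, 229 genes passed in either direction. Mcm5 and Rad51ap1 were the 2 replication genes lower at that level (4.44%), where 0.576% of all tested genes were. With the DESeq2 Wald test 1 gene of all those tested was called, the immunoglobulin segment Igkv4-58, and no replication gene. With limma voom none was called.

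The summed level of the 45 genes was 1281, 1126 and 1040 CPM in shChi3l1 1 to 3 and 1756, 1326, 1274 and 1370 CPM in shSC 1 to 4. The means were 1149 ± 122 CPM (SD, n = 3) and 1432 ± 220 CPM (SD, n = 4). The groups met at the edge: shChi3l1 1 lay just above shSC 3, and the other shChi3l1 libraries lay below every shSC library. In these bulk samples, fewer dividing cells and less of these RNAs per cell cannot be told apart.

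**Figure D1:**
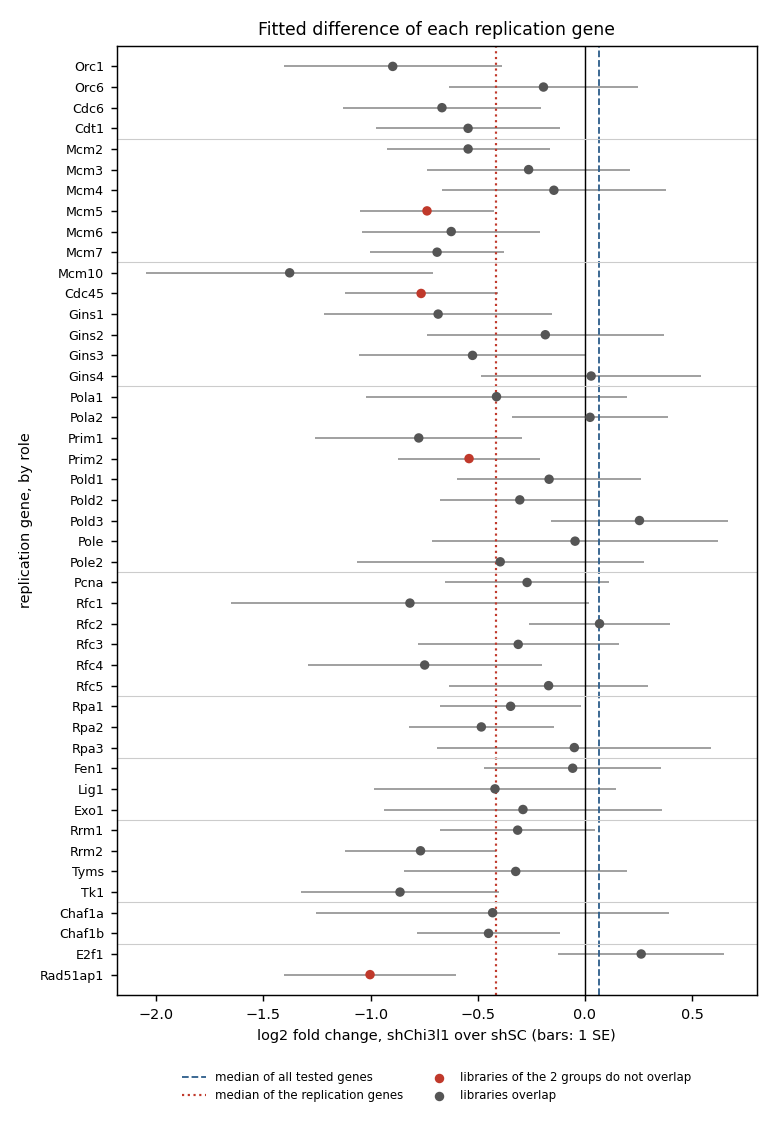
Fitted log2 fold change (shChi3l1 over shSC, x axis) of each of the 45 replication genes (y axis, in blocks by role), with bars of 1 standard error; red points are the genes whose libraries do not overlap between groups. Points lie left of 0 for 40 of 45 genes, around a median of -0.41 (dotted line), while the median of all tested genes is 0.07 (dashed line).

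In 4 of the 45 genes (8.89%) every shChi3l1 library was below every shSC library, which was so for 1.25% of all tested genes. The first is Mcm5, encoding a subunit of the helicase ring (ENSMUSG00000005410.6, chr8:75109569-75128439 of mm10, plus strand). Mcm5 had 41.1, 45.9 and 53.7 CPM in shChi3l1 1 to 3 and 103.8, 75.3, 72.2 and 61.3 CPM in shSC 1 to 4. The shSC library nearest the shChi3l1 range was shSC 4, and the fitted log2 fold change was -0.74 (SE 0.31). Cdc45, the helicase cofactor gene (ENSMUSG00000000028.15, chr16:18780447-18811987, minus strand), had 8.51, 9.45 and 6.63 CPM in shChi3l1 and 18.8, 11.3, 11.2 and 14.4 CPM in shSC. Its fold change was -0.76 (SE 0.36), and shSC 1 stood highest, as for Mcm5.

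Prim2, the gene of the large primase subunit (ENSMUSG00000026134.11, chr1:33453810-33669795, minus strand), had 8.47, 9.06 and 11.3 CPM in shChi3l1 and 17.8, 13.4, 12 and 12.6 CPM in shSC. The gap between the groups was small, and the fold change was -0.54 (SE 0.33). Rad51ap1, whose product takes part in recombination repair (ENSMUSG00000030346.16, chr6:126923050-126939587, minus strand), had 4.09, 3.03 and 3.21 CPM in shChi3l1 and 6.70, 5.76, 5.39 and 9.76 CPM in shSC. Here shSC 4 was highest, and the fold change was -1.0 (SE 0.40). The number of genes without overlap depended on the libraries used: without shChi3l1 1 it was 17 (8.50% of all tested genes), without shChi3l1 2 it was 10 (3.69%) and without shSC 3 it was 8 (2.69%).

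**Figure D2:**
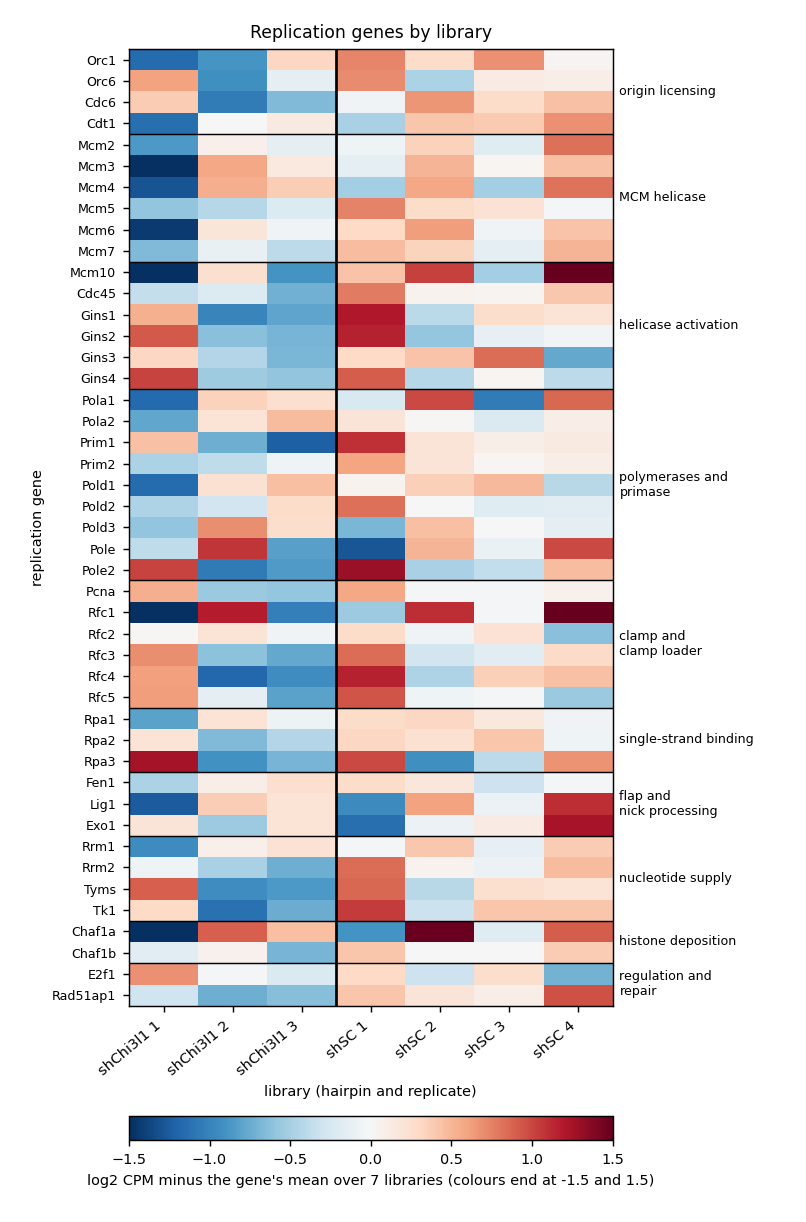
Level of each of the 45 replication genes (rows, by role) in each of the 7 libraries (columns, hairpin and replicate), as log2 CPM minus the gene's own mean over the 7 libraries, with colours ending at -1.5 and 1.5. The median gene is below its mean (blue) in the 3 shChi3l1 columns, above it (red) in shSC 1, 2 and 4, and close to it in shSC 3 (0.011); shSC 1 is the highest library for 19 genes and shChi3l1 1 the lowest for 20.

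The letters that E2F factors prefer were looked for in the promoters, since E2F factors are known regulators of this gene group. RefSeq windows on GRCm38.p6, from 250 bases before to 50 after an annotated start, were at hand for 37 of the 45 genes (42 windows). The search used TTTCCCGC, TTTGGCGC, TTTCGCGC and TTTGCCGC on both strands, where an overlapping pair of matches can share letters. At least 1 match was in 14 of the 42 windows (33.3%), against 2.27% of all 32851 windows of that length and 3.57% of 28 windows of mitosis genes. The mitosis windows held other letters more often. CCAAT was in 78.6% of them, 57.1% of the replication windows and 37.4% of all windows. The CHR letters TTTGAA were in 71.4%, 11.9% and 17.9%. Shown here are the helicase and licensing genes in which the matches lie upstream of the start, with the matched letters in capitals and each sequence given 5′ to 3′ on the strand of its gene.
Mcm5 (chr8:75109334-75109389, plus strand): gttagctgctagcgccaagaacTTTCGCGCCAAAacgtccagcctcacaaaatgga
Mcm6 (chr1:128359723-128359837, minus strand): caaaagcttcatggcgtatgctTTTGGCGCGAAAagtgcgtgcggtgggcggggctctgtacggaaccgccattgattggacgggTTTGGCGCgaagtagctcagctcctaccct
Cdc6 (chr11:98907991-98908042, plus strand): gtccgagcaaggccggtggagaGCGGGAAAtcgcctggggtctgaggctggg
Orc1 (chr4:108579405-108579456, plus strand): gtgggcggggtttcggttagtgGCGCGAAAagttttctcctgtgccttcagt
Gins3 (chr8:95633496-95633547, plus strand): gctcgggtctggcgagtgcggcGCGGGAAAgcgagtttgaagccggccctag

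The runs of capitals in Mcm5 and the longer one in Mcm6 are each an overlapping pair of matches on opposite strands, and Mcm6 has a further match nearer its start. A match is a description of the letters and not evidence of a bound site. The median log2 fold change was -0.47 over the 14 genes with a match and -0.43 over the 23 genes with a window and no match. Cdc45 and Rad51ap1, which were lower without overlap, had no match in their windows, which says only that these letters are not there.

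All 4 origin licensing genes fitted lower in shChi3l1, with a median log2 fold change of -0.61. Orc6, a subunit of the origin recognition complex and the gene of highest CPM in this class, had 31.0, 10.8 and 18.5 CPM in shChi3l1 and 33.2, 14.6, 22.2 and 21.8 CPM in shSC. Its groups overlapped widely, and its fold change of -0.19 (SE 0.44) turned to 0.10 without shChi3l1 2 and to 0.0062 without shSC 1. Orc1, the ATPase subunit of that complex, had 1.32, 1.6 and 3.7 CPM in shChi3l1 and 4.96, 3.61, 4.81 and 3.05 CPM in shSC. Only shChi3l1 3 reached into the shSC range, and the fold change was -0.90 (SE 0.51). Cdc6 was at -0.67 (SE 0.46) and Cdt1 at -0.55 (SE 0.43). The class sum was 45.1, 29.4 and 41.3 CPM in shChi3l1 and 53.2, 45.3, 52.1 and 54.9 CPM in shSC, with no shChi3l1 library above any shSC library.

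All 6 genes of the MCM2-7 ring fitted lower, with a median of -0.58. Besides Mcm5, the smallest unadjusted p was that of Mcm7, named here after its values were seen, at 29.0, 42.5 and 35 CPM in shChi3l1 and 63.5, 58.0, 41.9 and 65.7 CPM in shSC. Its overlap was by a single library on each side (shChi3l1 2 and shSC 3), with a fold change of -0.69 (SE 0.31). Mcm6 was at -0.62 (SE 0.42), Mcm2 at -0.54 (SE 0.38), Mcm3 at -0.26 (SE 0.48) and Mcm4 at -0.14 (SE 0.52). Without shChi3l1 1, Mcm3 was at 0.11 and Mcm4 at 0.21, while Mcm2, Mcm5, Mcm6 and Mcm7 stayed below 0. Mcm4 was also above 0 without shSC 4 (0.12) and with the replicate block (0.019). The class sum was 137, 305 and 265 CPM in shChi3l1 and 333, 376, 269 and 376 CPM in shSC. In shChi3l1 1 all 6 genes were at their lowest of the 7 libraries, and in the third pair of same-numbered libraries 3 of the 6 genes were lower in shChi3l1.

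Per kilobase of merged exon, the 6 subunits of the ring were not at one level. Which transcripts these cells use was not examined, so such comparisons between genes are approximate. The balance of short and long genes also differed between libraries, as described below. Mean levels over the 7 libraries were 16.2 CPM per kilobase for Mcm5, 15.2 for Mcm3, 13.2 for Mcm6, 10.8 for Mcm7, 8.99 for Mcm4 and 4.39 for Mcm2. The ranges over libraries overlapped between neighbours in that order, for example 10.3 to 26.0 CPM per kilobase for Mcm5 and 4.72 to 20.9 for Mcm3. Mcm2 reached at most 7.36 CPM per kilobase and stayed below the lowest library of Mcm5.

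Of the 6 helicase activation genes, 5 fitted lower, with a class median of -0.60. Mcm10, which helps to switch on the loaded helicase and is named here as the lowest of all 45 fitted values, had 0.638, 2.70 and 1.22 CPM in shChi3l1 and 3.08, 4.66, 1.6 and 6.58 CPM in shSC. Its groups overlapped through shChi3l1 2 and shSC 3, and the fold change was -1.38 (SE 0.67). Gins4, a GINS subunit and the gene of highest CPM in the class, had 97.9, 33.4 and 32.1 CPM in shChi3l1 and 91.2, 35.9, 49.4 and 37.0 CPM in shSC. The first library of each hairpin stood far above the others, and the fold change of 0.03 (SE 0.51) became -0.76 without shChi3l1 1 and was also below 0 with DESeq2's scaling and library totals alone. Gins1 was at -0.68 (SE 0.53), Gins3 at -0.52 (SE 0.53) and Gins2 at -0.18 (SE 0.55). Gse1 overlaps 67.3% of the exon bases of Gins2, so its counts are uncertain, since the library kit does not mark the strand.

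The 4 GINS subunits act as a single complex, yet their messages differed in CPM per kilobase of merged exon. The limit given for the MCM genes holds here, and Gins2 also has the overlap with Gse1. Gins4 averaged 39.9 CPM per kilobase over the 7 libraries, Gins1 6.34, Gins2 5.97 and Gins3 1.00. The lowest library of Gins4 (23.8 CPM per kilobase) lay above the highest of Gins1 (12.9), and the highest of Gins3 (1.66) lay below the lowest of Gins1 (2.82).

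The polymerase and primase class was more mixed, with 7 of 9 genes lower and a median of -0.30. Pold2, an accessory subunit of polymerase delta and the gene of highest CPM here, had 25.6, 28.7 and 42.7 CPM in shChi3l1 and 62.4, 34.9, 30.9 and 31.3 CPM in shSC. shSC 1 stood apart from the other 3 shSC libraries, shChi3l1 3 lay above them, and the fold change was -0.30 (SE 0.37). Prim1, the catalytic primase subunit, was at -0.78 (SE 0.48), close to the -0.54 of its partner Prim2. Pola1, Pole2, Pold1 and Pole were at -0.41, -0.40, -0.17 and -0.05. Pold3, another accessory subunit of polymerase delta, had the highest fitted value of the class, 0.25 (SE 0.41), with group means of 23.2 ± 9.61 CPM (SD, n = 3) and 19.4 ± 6.10 CPM (SD, n = 4). It was also the only replication gene above shSC in each of the 3 same-numbered pairs of libraries, as 12.5% of all tested genes were. Without shChi3l1 2 its value was -0.07. Pola2, the second subunit of polymerase alpha, was at 0.02 (SE 0.36) and below 0 with each of the 3 other scalings, with 22.4 ± 8.87 CPM (SD, n = 3) and 22 ± 2.60 CPM (SD, n = 4).

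Of the 6 clamp and clamp loader genes, 5 fitted lower, with a median of -0.29. Rfc2, a small RFC subunit, had 130.7, 148.6 and 124.3 CPM in shChi3l1 and 156.3, 123.8, 149.9 and 83.2 CPM in shSC. The groups covered the same range apart from the low shSC 4, and the fold change was 0.07 (SE 0.33), which became -0.09 without shSC 4 and -0.10 with library totals alone. Rfc4, another small subunit, had 27.9, 8.05 and 9.47 CPM in shChi3l1 and 40.5, 13.2, 23.2 and 24.7 CPM in shSC. In each group the first library was highest, and the fold change was -0.75 (SE 0.55). Pcna, the clamp itself, was named after its values were seen, for its use as a marker of S phase. It had 182.1, 85.1 and 83.5 CPM in shChi3l1 and 186.4, 123.1, 123.3 and 131.0 CPM in shSC. shChi3l1 2 and 3 lay below every shSC library while shChi3l1 1 lay among the highest, and the fold change was -0.27 (SE 0.38). Rfc1, the large subunit, was at -0.82 with the widest standard error of the 45 genes (0.84), and Rfc3 and Rfc5 were at -0.31 and -0.17.

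Pcna had the highest level per kilobase of merged exon of the 45 genes, a mean of 54.4 CPM per kilobase over the 7 libraries. These comparisons have the limit given for the MCM genes. Below it were Gins4 at 39.9, Rpa3 at 34.5 and Rfc2 at 20.8, and the ranges of Pcna, Gins4 and Rpa3 over libraries overlapped. At the other end were Exo1 at 0.18, Pole at 0.26, Mcm10 at 0.38 and Chaf1a at 0.43 CPM per kilobase. The 5 RFC subunits averaged 20.8 (Rfc2), 13.8 (Rfc5), 13.7 (Rfc4), 6.05 (Rfc3) and 0.98 (Rfc1) CPM per kilobase.

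All 3 RPA genes, which encode the trimer that covers single-stranded DNA, fitted lower, with a median of -0.35. Rpa1, the large subunit, had 26.1, 52.7 and 43.3 CPM in shChi3l1 and 55.3, 56.5, 51.2 and 44.0 CPM in shSC. Only shChi3l1 2 entered the shSC range, and the fold change was -0.35 (SE 0.33). Rpa2, the middle subunit, had 27.1, 14.8 and 17.3 CPM in shChi3l1 and 29.1, 27.5, 31.2 and 22.4 CPM in shSC. Only shChi3l1 1 entered the shSC range, and the fold change was -0.48 (SE 0.34). Rpa3, the small subunit, was at -0.05 (SE 0.64) and ranged from 17.3 to 77.9 CPM over the libraries.

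The 3 genes of flap and nick processing also fitted lower, with a median of -0.29. Lig1, the ligase that seals Okazaki fragments, had 4.94, 15.2 and 13.6 CPM in shChi3l1 and 6.06, 17.8, 11 and 25.3 CPM in shSC. The first library of each hairpin was lowest, shSC 4 was highest, and the fold change was -0.42 (SE 0.56). Exo1, an exonuclease, was at -0.29 (SE 0.65), and the flap endonuclease gene Fen1 at -0.06 (SE 0.41). Gm10143 overlaps 84.2% of the exon bases of Fen1, which leaves its counts uncertain.

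All 4 nucleotide supply genes fitted lower, with a median of -0.54. Rrm2, the regulated subunit of ribonucleotide reductase, had 30.0, 22.4 and 18.8 CPM in shChi3l1 and 55.8, 32.6, 29.5 and 43.5 CPM in shSC. Only shChi3l1 1 reached the lowest shSC library, and the fold change was -0.77 (SE 0.35). Tyms, which makes thymidylate and had the highest CPM in the class, had 84.4, 23.7 and 24.9 CPM in shChi3l1 and 82.2, 33.8, 53.6 and 52.2 CPM in shSC. shChi3l1 1 was the highest of all 7 libraries while the other shChi3l1 libraries were the lowest, and the fold change was -0.32 (SE 0.52). Tk1, the S-phase thymidine kinase, was at -0.86 (SE 0.46) and the large reductase subunit Rrm1 at -0.31 (SE 0.36). The class sum was 167, 103 and 109 CPM in shChi3l1 and 232, 143, 156 and 185 CPM in shSC, which made it 27.8%, 28.3% and 30.4% lower in shChi3l1 in the 3 same-numbered pairs.

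The 2 listed genes of CAF-1, the chaperone that places histones on new DNA, both fitted lower. Chaf1b had 17.5, 20.5 and 12.1 CPM in shChi3l1 and 26.2, 19.7, 19.7 and 25.7 CPM in shSC. Only shChi3l1 2 entered the shSC range, and the fold change was -0.45 (SE 0.33). Chaf1a was at -0.43 (SE 0.82), but Ubxn6 overlaps 52.5% of its exon bases. E2f1, the transcription factor gene that heads the regulation class, was the highest of the 45 fitted values at 0.26 (SE 0.39). It had 32.9, 20.1 and 17.5 CPM in shChi3l1 and 25, 16.4, 24.5 and 12.5 CPM in shSC. The groups overlapped over most of their range, and without shChi3l1 1 the value was -0.10.

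**Figure D3:**
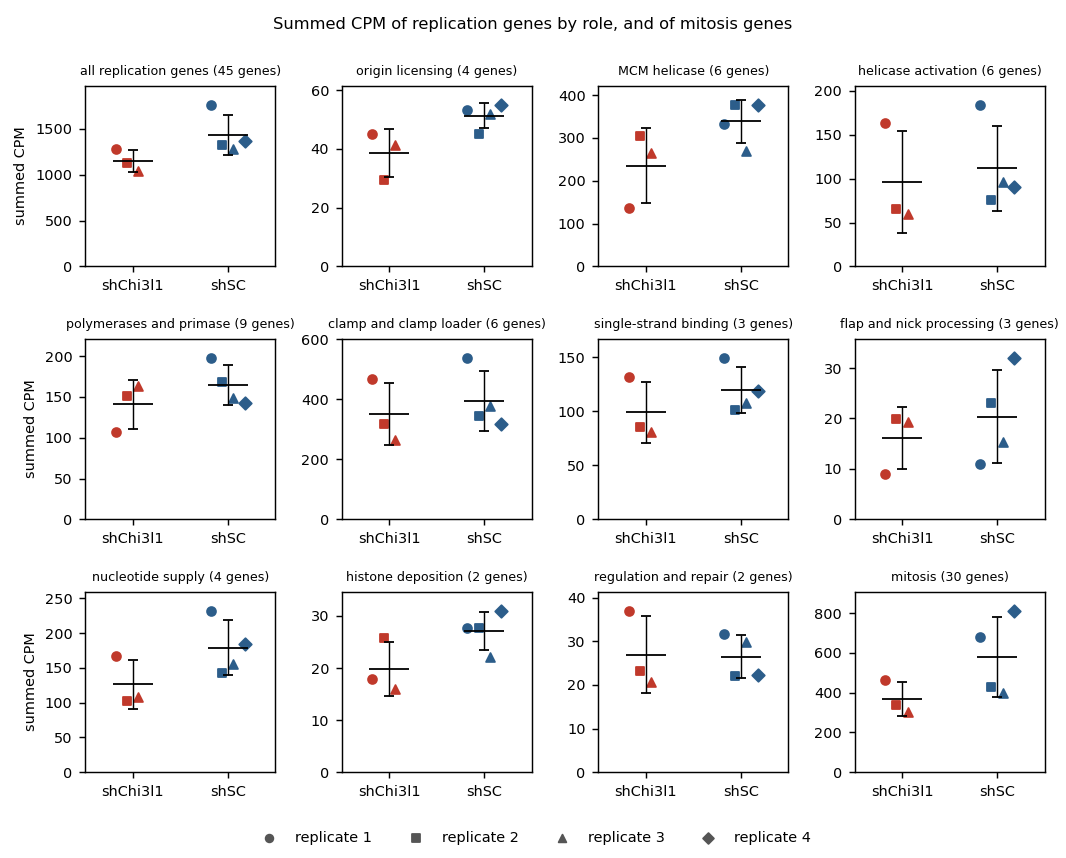
Summed CPM of the replication genes, of each role class and of the mitosis genes (y axes start at 0) in shChi3l1 (red) and shSC (blue) libraries; symbols mark replicates 1 to 4, and lines and bars are the mean and 1 SD. Sums of the licensing class lie lower in every shChi3l1 library than in any shSC library, those of all replication genes overlap slightly (1281 CPM in shChi3l1 1, 1274 CPM in shSC 3), and those of the clamp and regulation classes overlap widely.

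The labels couple replicates 1 to 3 of the hairpins, so the genes were also read pair by pair. Same-numbered libraries deviated together over all tested genes (correlations of 0.306, 0.26 and 0.188), but so did shChi3l1 3 and shSC 2 (0.322), which carry different numbers. In the first pair 36 of the 45 genes were lower in shChi3l1 (45.7% of all tested genes were), in the second 36 (49.2%) and in the third 33 (50.1%). Median log2 differences were -0.67, -0.41 and -0.39, beside 0.08, 0.01 and -0.0016 over all tested genes. The sum of the 45 genes was lower by 27.1%, 15.1% and 18.3%. Lower in all 3 pairs were 23 genes (51.1%, against 10.7% of all tested genes). They included Orc1, Orc6, Cdt1, Mcm5, Mcm6, Mcm7, Cdc45, Prim1, Prim2, Pcna, Rpa1, Rpa2, Rrm2, Tk1 and Rad51ap1.

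With the replicate number as a block, over the 6 numbered libraries and thus without shSC 4, edgeR's test again called no gene at an adjusted p under 0.05. The number of genes at an unadjusted p under 0.05 was 435 of 14950 with the block, 143 in the same 6 libraries without the block, and 229 of 15448 in the fit of all 7 libraries. Replication genes lower at that level numbered 7 with the block (0.856% of all tested genes were), 1 in the same 6 libraries without it (0.254%) and 2 in all 7. The 7 were Tk1 at -0.91 (SE 0.24), Prim1 at -0.97, Mcm5 at -0.83, Rfc4 at -0.85, Rrm2 at -0.70, Gins1 at -0.77 and Orc1 at -1.14. Rad51ap1 was no longer among them, at -0.80 (SE 0.33) with the block and -0.79 (SE 0.41) in the same 6 libraries without it. With the block 40 of the 45 genes were lower (47.6% of all tested genes), with a median of -0.44.

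**Figure D4:**
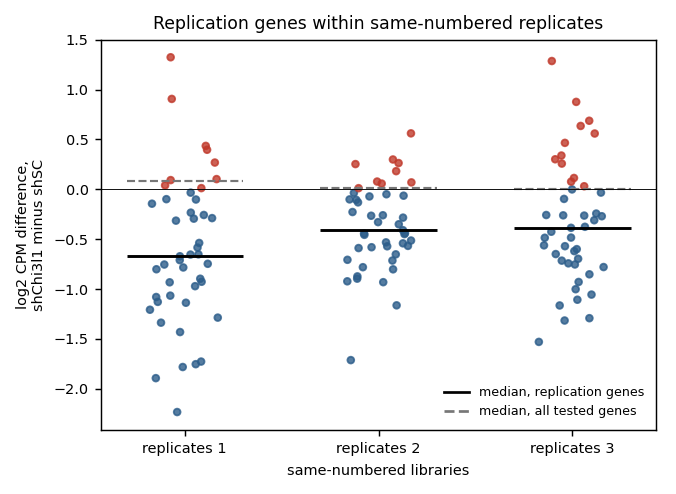
Difference in log2 CPM (y axis, shChi3l1 minus shSC) of each replication gene in the 3 pairs of same-numbered libraries (x axis), blue below 0 and red above. Solid lines are the medians of the 45 genes (-0.67, -0.41 and -0.39) and dashed lines those of all tested genes (0.08, 0.01 and -0.0016).

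Libraries differed in a further way that touched these genes: the balance between short and long genes. Over the 45 genes, the correlation (Pearson's r, n = 45 genes of shared libraries) of log2 length with the level centred on each gene's mean was -0.51 in shChi3l1 1 and -0.57 in shSC 1. It was 0.53 and 0.58 in shChi3l1 2 and shSC 2, 0.25 and -0.20 in shChi3l1 3 and shSC 3, and 0.35 in shSC 4. The same sign was seen over all 15448 tested genes in each library, for example -0.37 in shChi3l1 1 and 0.42 in shChi3l1 2. Genes longer than 5000 bases took 12.6% of counts in shChi3l1 1 and 14.8% in shSC 1, and 16.8% to 20.7% in the other 5 libraries. The 4 shortest replication genes (Rpa3, Gins4, Gins1 and Rfc4) stood above their own mean in the first library of each hairpin, and the long Mcm10, Rfc1 and Chaf1a stood far below it in shChi3l1 1. Other genes departed from this trend: the short Pold2 (1896 bases) and Fen1 (2422 bases) were lowest in shChi3l1 1, while Tyms (6089 bases) was highest there.

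The genes were also split at their median length. The median log2 fold change was -0.35 over the 22 shorter genes and -0.42 over the 23 longer ones. In pairs 1 to 3 the medians were -0.60, -0.42 and -0.52 for the shorter genes and -0.80, -0.33 and -0.24 for the longer ones. With each library's length trend entered as offsets in the fit, 43 of the 45 genes were lower (48.9% of all tested genes), with a median of -0.51, and the genes still above 0 were Pold3 and E2f1. No gene was called with these offsets either. The part of gene length in the difference between hairpins was not tested.

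**Figure D5:**
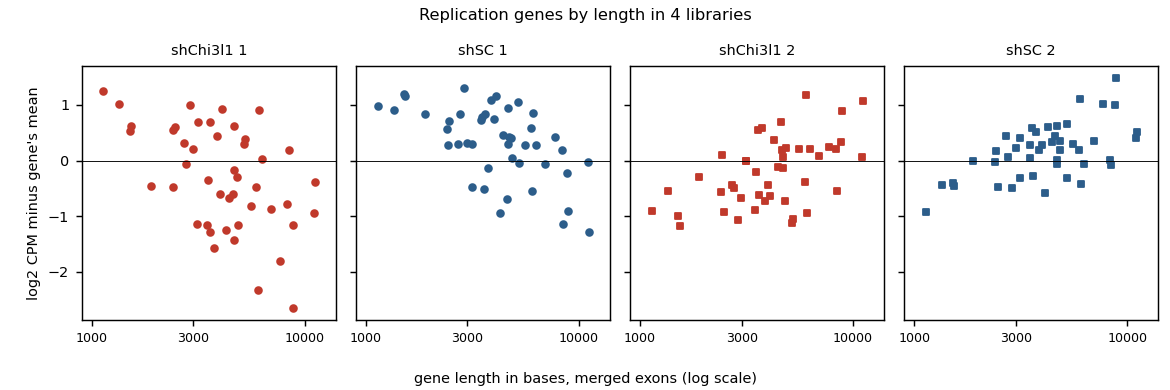
Level of each of the 45 replication genes (y axis, log2 CPM minus the gene's mean over the 7 libraries) against its merged exon length in bases (x axis, log scale), in the 2 first pairs of same-numbered libraries. The level falls with length in shChi3l1 1 and shSC 1 (r = -0.51 and -0.57) and climbs with length in shChi3l1 2 and shSC 2 (r = 0.53 and 0.58).

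In the fit of all 7 libraries, genes of other cell cycle lists mostly differed in the same direction, to unlike degrees. All 30 mitosis genes fitted lower (42.4% of all tested genes did), with a median of -0.78. In edgeR's test 7 of the 30 (23.3%) were lower at an unadjusted p under 0.05, against 0.576% of all tested genes. In pairs 1 to 3, and thus without shSC 4, the lower genes numbered 22, 25 and 21 of 30 (45.7%, 49.2% and 50.1% of all tested genes). Median log2 differences in the pairs were -0.86, -0.32 and -0.39. Of the 30, 17 were lower in all 3 pairs and 2 higher, against 10.7% and 12.5% of all tested genes. The mitosis genes of smallest p included Knstrn, a kinetochore and spindle gene, at -0.99 (SE 0.36). The others were the mitotic kinase genes Aurkb at -1.06 (SE 0.40) and Aurka at -0.80 (SE 0.33). These 3 were among the 5 of 30 mitosis genes (16.7%, against 1.25% of all tested genes) that were lower without overlap between groups. The mitosis sum was 463, 337 and 301 CPM in shChi3l1 and 681, 427, 398 and 811 CPM in shSC. The ratio of the replication sum to the mitosis sum was 2.77, 3.34 and 3.46 in shChi3l1 and 2.58, 3.11, 3.20 and 1.69 in shSC, so shSC 4 held the most mitotic message for its replication message.

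The 54 other genes of S phase and its control were split, with 35 lower (64.8%) and a median of -0.20. Among them Dbf4, the activating subunit of the CDC7 kinase, was at -0.72 (SE 0.35) and Nasp, a histone chaperone gene, at -0.58 (SE 0.33). Both were among the 3 of 54 genes (5.56%, against 1.25% of all tested genes) that were lower without overlap between groups. In edgeR's test none of the 54 was at an unadjusted p under 0.05. Mcmbp, whose product binds MCM proteins, was at 0.73 (SE 0.41). Of 28 genes of RB and E2F control, 21 were lower, also with a median of -0.20. In pairs 1 to 3 the lower genes of this list numbered 19, 16 and 15 (67.9%, 57.1% and 53.6%). Over all tested genes 45.7%, 49.2% and 50.1% were lower in these pairs. Ccna2, encoding cyclin A2, was at -0.96 (SE 0.41), E2f6, a repressor of the family, at -0.76 (SE 0.37), and Myc at -1.44 (SE 0.70), with 149 CPM in shSC 4 and at most 49.6 CPM in the other libraries.

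CDK inhibitor genes did not mirror this: 3 of 7 were lower (42.9%, against 42.4% of all tested genes), with a median of 0.21. Cdkn2a was at -1.70 (SE 1.29), Cdkn2c at -0.28 (SE 0.36) and Cdkn1a, encoding p21, at 0.27 (SE 0.36). Of 7 genes of the macrophage growth factor axis 6 fitted higher in shChi3l1 and 1 lower (14.3%, where 42.4% of all tested genes were lower). Read pair by pair, 6, 1 and 0 of the 7 were lower in pairs 1 to 3. Csf1 was at 2.11 (SE 0.83), from 56.2 and 58.1 CPM in shChi3l1 2 and 3 beside 3.19 CPM in shChi3l1 1 and 3.38 to 14.5 CPM in shSC. Its receptor gene Csf1r was at 1.02 (SE 0.71) and Il34, whose product binds the same receptor, at 0.94 (SE 1.01). No gene of these lists passed edgeR's test at an adjusted p under 0.05.

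Other cell types that a macrophage sort can hold divide as well, so their markers are given beside the sums. Read pair by pair, several of these marker lists changed direction. The tumour and glia markers fitted lower in shChi3l1 in 12 of 13 tested genes, but 0, 8 and 11 of the 13 were lower in pairs 1 to 3. They summed to 364 CPM in shSC 4 against 47.7 to 83.4 CPM in the other shSC libraries. In shChi3l1 3, Olig2, Ncan and Dcx were among the markers at 0. Without shSC 4, 38 of the 45 replication genes were lower with a median of -0.35, and the log2 difference of their sum was -0.33 against -0.31 with all libraries. T and NK cell markers summed to 94.2 to 522 CPM in shChi3l1 and 76.7 to 715 CPM in shSC, with 6 of 10 lower in the fit and 0, 10 and 10 lower in the pairs. B and plasma cell markers summed to 25.1 to 1537 CPM and 31.3 to 562 CPM, with 5 of 5 tested genes higher in the fit and 5 of 5 lower in the second pair. Microglia markers summed to 855 to 3223 CPM and 715 to 1209 CPM, with 8 of 8 higher in the fit and 7 of 8 lower in the first pair. Monocyte markers summed to 1076 to 3387 CPM and 504 to 2241 CPM, with 3 of 5 lower. Of the 10 macrophage markers, all higher in the fit, 5, 2 and 2 were lower in the pairs. The higher macrophage marker sum in shChi3l1 was mostly Lyz2. The part of these cells, and of that sum, in the difference of the replication genes was not tested.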

How the data were processed

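RNA of 7 macrophage libraries was amplified with SMART-Seq from 10 ng and made into Nextera XT libraries from 1 ng of cDNA, per the labels' protocols. The authors deposited whole-number counts per gene and library. Trim Galore, HISAT2, featureCounts and the mouse build mm10 are named per the submitters' processing notes, with versions, settings and annotation not given in the sources used here. Symbols were matched for 55144 of 55385 gene IDs. The 241 IDs without one took at most 0.00179% of a library's counts.

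The replication genes and the other lists were chosen with earlier results of these data known. Counts were tested with edgeR 4.0.16 (R 4.3.3): TMM scaling, filterByExpr with a minimum count of 10, a robust quasi-likelihood test of shChi3l1 against shSC over all 15448 genes that passed, and Benjamini-Hochberg adjustment with a threshold of 0.05. CPM used the TMM library sizes. Logs of single libraries added 0.5 counts. CPM per kilobase used the merged exon length in the files, and which transcripts the cells used was not examined. The procedure was tested on counts simulated with the means, library sizes and dispersions of these data. It called 2% of 50 genes changed 2-fold, 34% of 50 changed 4-fold and 82% of 50 changed 8-fold, with 4 false calls. Named genes were, in each role class, those of highest mean CPM and of smallest p, every gene without overlap between groups and every gene that fitted higher, and from each other list at most the 3 of smallest p. A difference at this depth and with 3 against 4 libraries has a median standard error of 0.55 on the log2 scale over all genes.

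Alternatives were other scalings, filters, libraries left out, length offsets (loess span 0.5), DESeq2 1.42.0, limma 3.58.1 voom with sample weights, fewer members, and a replicate block. The labels call replicates 1 to 3 of the hairpins pairs in a figure of the study. Deviations of same-numbered libraries from their group means correlated at 0.306, 0.26 and 0.188 over genes, each above the limit of 0.1 set for pairing, while shSC 4 has no partner. That is not particular to the pairs: of the differently numbered libraries, shChi3l1 3 with shSC 2 (0.322) and shChi3l1 2 with shSC 4 (0.20) were above the limit too. Each of the 21 pairs of libraries differed by more than sampling noise (chi-square per gene of at least 157 over genes with a mean of 50 reads or more).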

Additional observations from a re-analysis of the deposited data

Results flagged for a closer look

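Among 46 groups of 4 shSC values (the 19 named genes and the sums of the lists and roles, which are not independent of each other), 5 had 1 library far from the other 3, with a gap to the nearest value that took up most of the range, above Dixon's limit for groups of 4. Chance flags about 1 in 20 such groups. One was a replication gene: Pold2 was at 62.4 CPM in shSC 1. The other 4 were marker sums. The macrophage markers, mostly Lyz2, were at 29153 CPM in shSC 2 and the tumour and glia markers at 364 CPM in shSC 4. The B and plasma cell markers were at 562 CPM in shSC 3 and the erythroid markers at 60.6 CPM in shSC 4.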

How the results depend on the processing

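In every alternative most replication genes stayed lower in shChi3l1: 34 to 43 of 45, 37 of the 42 with little overlap by other genes and 30 of the 35 with a mean of at least 5 CPM. The number was 34 without shSC 1, where 44.85% of all tested genes were lower, and 43 with library totals alone, where 64.1% were. No replication gene was called in any of the 20 alternatives, and 1 gene of all those tested was called with the DESeq2 Wald test. The median log2 fold change of the replication genes, -0.41, was -0.62 with library totals alone and -0.61 to -0.35 as single libraries were left out, the lowest without shChi3l1 1. Library totals alone also moved the median of all genes to -0.13, with 64.1% of them lower. The number without overlap, 4, was 10 with library totals alone (3.28% of all genes), 7 without shChi3l1 3 and shSC 4 together (4.47%), 9 with the replicate block and length offsets (2.31%), and 5 to 17 as single libraries were left out. The log2 difference of the sum was -0.51 with library totals alone and -0.43 to -0.24 as single libraries were left out. The number lower at an unadjusted p under 0.05, 2, was 1 to 10 over the alternatives. The share of all tested genes lower at that level moved too. It was 2.24% without shChi3l1 1, which gave the 10, and 0.254% without shSC 4, which gave 1. Genes at that level in either direction numbered 908 without shChi3l1 1 and 229 in all 7 libraries. The replicate block, over the 6 paired libraries, changed no call at an adjusted p under 0.05. Against the same 6 libraries without the block, 6 genes gained an unadjusted p under 0.05. Rad51ap1, under that level in all 7 libraries, was above it in the 6 libraries both with and without the block.

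Of the 19 named genes 7 changed sign somewhere, which had fitted values from -0.30 to 0.26. Gins4 was at -0.027 with DESeq2's factors and -0.026 with its Wald test, -0.19 with library totals alone, -0.095 without the filter, -0.21 with the replicate block, -0.14 with block and offsets, -0.070 with offsets, -0.29 with voom, and -0.76 to 0.39 with single libraries left out. Pola2 was at -0.031 with both DESeq2's factors and its Wald test, -0.054 with upper quartile factors, -0.12 with library totals alone, -0.020 without the filter, -0.22 without shChi3l1 3 and shSC 4, -0.027 with the block, -0.25 with block and offsets, and -0.22 with offsets. Rfc2 was at -0.10 with library totals alone, -0.040 without shChi3l1 3 and shSC 4, -0.089 with the block, -0.25 with block and offsets, and -0.084 with offsets. Pold2 was at 0.0085 with voom. The fits with the block also leave out shSC 4. Without shSC 4 and with no block, Gins4 was at -0.11, Rfc2 at -0.092 and Pola2 at 0.045.

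With single libraries left out, Pola2 ranged from -0.24 to 0.27, Rfc2 from -0.092 to 0.16, Orc6 from -0.70 to 0.10, E2f1 from -0.10 to 0.43 and Pold3 from -0.069 to 0.51. The cause of these shifts was not tested. An alternative without genes of an earlier proliferation list was not run, as its members are not known here. Standard errors of the replication genes ran up to 0.84 (Rfc1), and the spread between 7 libraries limits what could be detected.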
